A study of Mus musculus with 24 samples.

Results

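CDK inhibitors are proteins that bind and restrain the cyclin-dependent kinases (CDKs), the enzymes that drive the cell cycle. The family described here comprised the 8 genes whose symbol in the deposited count table was Cdkn1a, Cdkn1b, Cdkn1c, Cdkn2a, Cdkn2b, Cdkn2c, Cdkn2d or Cdkn3, out of 47967 genes in the table. All 8 had counts in every library and all 8 passed the filter on low counts that left 17576 genes for testing. RNA sequencing was done on mouse embryonic fibroblasts (MEFs), adherent cells taken from C57BL/6 embryos at E13.5 to E14.5, during retroviral reprogramming towards heart muscle. At day 7 the groups were cells transduced with AGHMT, GHMT or GMT, and mock cells. The same 4 groups were taken at day 2, so that 8 groups of 3 libraries made 24 in all. In this field GMT usually means the factors Gata4, Mef2c and Tbx5, H adds the factor Hand2, and A adds the kinase Akt1. Cells were not selected for infection as far as the labels say, so each library averages the whole culture. All groups share the strain and the cell source, and the infected cells were moved to an induction medium with horse serum, B-27 and insulin. The labels do not state whether mock cells received an empty virus or which medium they were kept in, nor do they say where the 3 libraries of a group came from. The p-values therefore measure the spread between libraries, which may be technical.

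The family has 2 structural branches and 1 outlier. The Cip/Kip proteins p21 (Cdkn1a), p27 (Cdkn1b) and p57 (Cdkn1c) bind complexes of cyclins with CDK2 and with the G1 kinases. The INK4 proteins p16 (from Cdkn2a), p15 (Cdkn2b), p18 (Cdkn2c) and p19Ink4d (Cdkn2d) bind CDK4 and CDK6 and keep cyclin D from activating them. When these kinases are held back, the retinoblastoma proteins stay bound to E2F factors and genes of DNA replication are not transcribed. Cdkn3 encodes KAP, a phosphatase that removes the activating phosphate from CDK2, and its mRNA follows the cell cycle. In cultured MEFs, Cdkn2a and Cdkn2b are known to rise with time in culture, and in heart muscle several members accompany withdrawal from the cell cycle.

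Library totals ran from 29345957 to 37495178 counts. Levels are given as CPM, the counts of a gene relative to its library's total, scaled with TMM factors, and folds are the fitted log2 changes put back on a linear scale. Fold changes on the log2 scale come from edgeR's quasi-likelihood fit of all 24 libraries and are followed by ± SE. Adjusted p-values are Benjamini-Hochberg values over all 17576 genes, and a gene was called under 0.05. Summed levels of 12 cardiomyocyte markers were 23730 to 24700 CPM in AGHMT, 16480 to 17370 in GHMT and 11040 to 11470 in GMT libraries at day 7, against 23.6 to 27.3 CPM in mock libraries. The 12 fibroblast markers summed to 19380 to 20310 CPM in AGHMT, 17920 to 19410 in GHMT and 13430 to 14380 in GMT libraries at day 7, against 74110 to 80270 CPM in mock libraries. Macrophage markers are given beside Cdkn1c. Over all 24 libraries 10 endothelial markers summed to 6.36 to 18.6 CPM, 8 neural markers to 70.6 to 262.8 CPM, and 9 epithelial and mesothelial markers to 31.3 to 685 CPM, the last highest in GHMT cells at day 7. Hand2 had 1125 ± 10.9 CPM in AGHMT, 978 ± 42.0 in GHMT and 3.23 ± 0.20 in GMT cells at day 7, against 7.58 ± 0.41 CPM in mock cells (SD, n = 3 each). Akt1 had 451 ± 7.2 CPM in AGHMT, 382 ± 1.7 in GHMT and 380.1 ± 7.2 in GMT cells, against 385 ± 22.5 CPM in mock cells. Reads of a retroviral copy and of the endogenous gene were not told apart in these counts. Akt1 was thus 1.18-fold higher in AGHMT than in GHMT cells at day 7. Gata4, Mef2c and Tbx5 were also called higher in GHMT than in GMT cells at both days. Their log2 differences were 0.16, 0.26 and 0.24 at day 7 and 0.37, 0.13 and 0.19 at day 2. The step from GMT to GHMT, called the Hand2 step below, therefore changed more than Hand2. The part of these 3 factors in the differences between GHMT and GMT cells was not tested. At the step from GHMT to AGHMT, called the Akt1 step below, mean Hand2 was higher as well at day 7 (1125 against 978 CPM). The Akt1 step therefore changed more than Akt1, and the part of Hand2 in it was not tested. The AGHMT day 2 library of replicate 3 stood farthest from its group, with a root mean square log2 distance of 0.396 from the other 2 libraries, against 0.247 to 0.314 for the other 23. The Cdkn1c values that rest on this library, and any call that it decided, are given with and without it.

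Each member had its own order of groups, and the order was widest for Cdkn1c. Its highest group mean, in AGHMT cells at day 2, was 258-fold its lowest, in GMT cells at day 7. Without AGHMT day 2 replicate 3 this ratio was 235. The ratio of highest to lowest group mean was 9.86 for Cdkn2a, 9.69 for Cdkn2c, 6.68 for Cdkn3, 4.80 for Cdkn2b, 3.28 for Cdkn1b, 3.04 for Cdkn1a and 2.40 for Cdkn2d. Per kilobase of exon, Cdkn1a was the highest member in 7 of the 8 groups, at 424 CPM per kb in GMT cells and 146 in mock cells at day 7. In AGHMT cells at day 2 Cdkn1c stood above it, at 324 CPM per kb with an SD of 50.02, against 290.2 ± 17.1 for Cdkn1a. Without AGHMT day 2 replicate 3 these means were 295 and 280.5 CPM per kb. Cdkn3 was the lowest member per kilobase in every group.

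**Figure D1:**
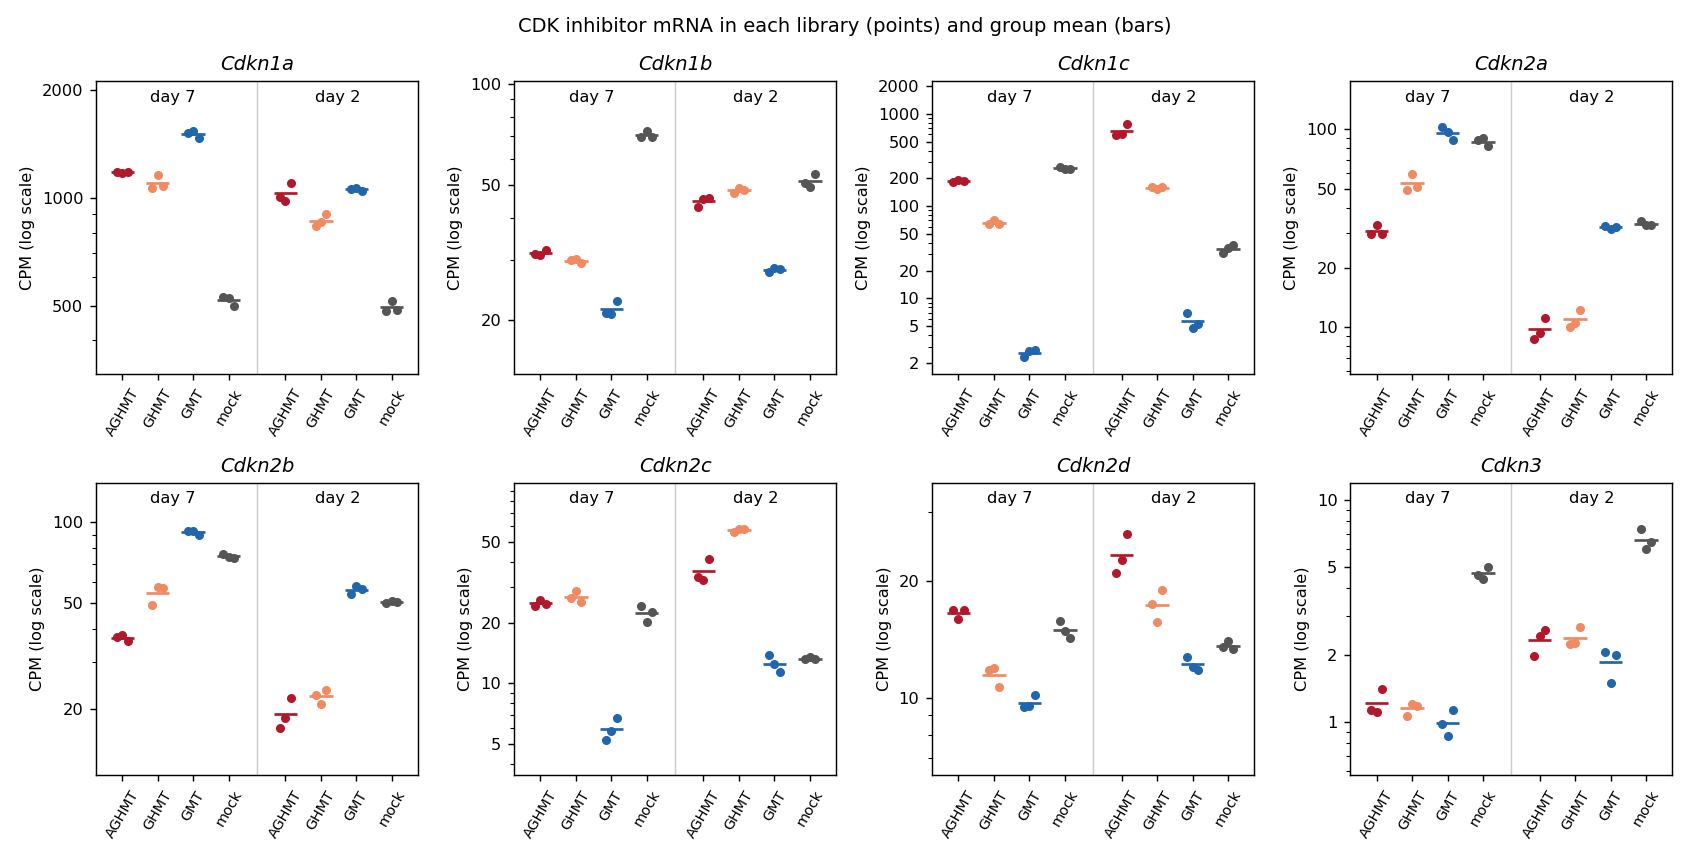
Level of the 8 CDK inhibitors in each of the 24 libraries (points) with the group mean (bars), in TMM-scaled CPM on a log axis, AGHMT, GHMT, GMT and mock from left to right at day 7 and then at day 2. Cdkn1a is above mock and Cdkn3 below mock in every cocktail library, while Cdkn1c spans 2.28 to 778 CPM.

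Counts of members called are given with the share of all genes tested that were called in the same direction. Against mock cells at day 7 the members called were 1 higher and 5 lower (38.6% and 38.1% of all genes) in AGHMT cells, 2 higher and 6 lower (36.3% and 35.6% of all genes) in GHMT cells and 2 higher and 5 lower (37.1% and 36.0% of all genes) in GMT cells. At day 2 they were 4 higher and 4 lower (38.0% and 37.4% of all genes) in AGHMT cells, 4 higher and 3 lower (34.9% and 33.3% of all genes) in GHMT cells and 2 higher and 3 lower (33.9% and 33.1% of all genes) in GMT cells. Over both directions 5 to 8 of 8 members were called where most of all genes were, so what follows rests on the size and direction of each member's difference. The 6 comparisons share the mock libraries of their day. Fewer cells of a type and less RNA per cell cannot be told apart in bulk RNA.

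Cdkn1a, the p53-responsive inhibitor p21 (chromosome 17, 29090976 to 29100727, plus strand, GRCm38), rose against mock in all 3 cocktails at both days. Its day 7 levels were 1186, 1172 and 1179.5 CPM in the AGHMT libraries, 1064, 1156 and 1078 in the GHMT libraries and 1515, 1535 and 1469 in the GMT libraries, against 528, 525 and 499 in the mock libraries. Every cocktail library was above every mock library, and GMT cells stood above both larger cocktails. The log2 fold change against mock was 1.19 ± 0.046 in AGHMT cells (adjusted p = 1.00e-17), 1.09 ± 0.046 in GHMT cells (7.18e-17) and 1.54 ± 0.046 in GMT cells (6.10e-20). Its day 2 levels were 1009.7, 983 and 1099.6 CPM in the AGHMT libraries, 834, 859.5 and 901 in the GHMT libraries and 1059.9, 1066 and 1044 in the GMT libraries, against 484, 516 and 485 in the mock libraries. Again no cocktail library overlapped mock, and the folds over mock were 2.08, 1.75 and 2.13 in AGHMT, GHMT and GMT cells (adjusted p = 1.18e-16, 4.18e-14 and 9.26e-17). The level in mock cells at day 7 overlapped that at day 2 (log2 fold change 0.06 ± 0.045, adjusted p = 0.250). From high to low the groups ran GMT day 7, AGHMT day 7, then GHMT day 7, GMT day 2 and AGHMT day 2, each overlapping the next, then GHMT day 2, and last mock day 7 and mock day 2.

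GHMT cells had less Cdkn1a than GMT cells, 1.37-fold lower at day 7 (adjusted p = 7.64e-09) and 1.22-fold lower at day 2 (8.53e-06). Between AGHMT and GHMT cells, Cdkn1a was 1.19-fold higher in AGHMT cells at day 2 (adjusted p = 4.05e-05). At day 7 this difference was 0.10 ± 0.045 on the log2 scale and missed the threshold (adjusted p = 0.0674), but passed it without GHMT day 7 replicate 2 (0.14, adjusted p = 0.0229). Cdkn1a shares 273 exon bases with AC167363.2 on the other strand, a gene that has no row in the deposited counts. Its reads cannot be told apart from those of Cdkn1a without the strand setting.

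The 300-base window around the upstream start of Cdkn1a held a p53 site with at most 1 mismatch of 20 letters to the consensus of 2 abutting 10-base half-sites, with its first base at position -51 from the start. Such a site was found in 0.0883% of 32851 mouse promoter windows of the same length, on either strand. The window of the downstream start of Cdkn1a held no such site, and counts per gene do not tell the starts apart. The upstream window is shown because Cdkn1a, a known p53 target, rose in all 6 comparisons with mock. It is given in the direction of transcription, from RefSeq on GRCm38.p6, chr17:29090729-29091028, plus strand, with the p53 site in capitals.
Cdkn1a: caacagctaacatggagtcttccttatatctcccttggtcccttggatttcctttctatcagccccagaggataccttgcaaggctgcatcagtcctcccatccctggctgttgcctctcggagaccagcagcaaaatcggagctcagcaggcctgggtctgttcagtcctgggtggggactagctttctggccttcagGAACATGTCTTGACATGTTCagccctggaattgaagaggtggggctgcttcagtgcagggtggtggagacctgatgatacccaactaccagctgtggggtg

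Cdkn1b, the inhibitor p27, which accumulates in resting cells and is degraded after binding by Skp2 (chromosome 6, 134920401 to 134925513, plus strand), fell against mock in all 3 cocktails at day 7. Day 7 levels were 31.3, 31.1 and 32.3 CPM in the AGHMT libraries, 30.2, 30.3 and 29.4 in the GHMT libraries and 20.9, 20.8 and 22.7 in the GMT libraries, against 69.6, 72.5 and 69.4 in the mock libraries. No library of any cocktail reached the mock range, and GMT libraries were lowest. It was 2.23, 2.35 and 3.28-fold lower in AGHMT, GHMT and GMT cells (adjusted p = 6.43e-18, 2.01e-18 and 3.72e-21). Day 2 levels were 43.2, 45.7 and 45.8 CPM in the AGHMT libraries, 47.6, 49.1 and 48.4 in the GHMT libraries and 27.8, 28.5 and 28.3 in the GMT libraries, against 50.9, 49.4 and 54.2 in the mock libraries. GMT libraries lay far below the rest, and the other 3 groups lay close together without overlap. GMT cells were 1.83-fold lower than mock cells (4.53e-15), and AGHMT cells were 1.147-fold lower (2.10e-04). The GHMT difference was -0.09 ± 0.043 on the log2 scale (adjusted p = 0.0680), and passed the threshold without mock day 2 replicate 2 (-0.12, adjusted p = 0.0334). The groups ran, from high to low and with no overlap between neighbours, mock day 7, mock day 2, GHMT day 2, AGHMT day 2, AGHMT day 7, GHMT day 7, GMT day 2 and GMT day 7.

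Cdkn1b was higher in GHMT than in GMT cells, 1.39-fold at day 7 (adjusted p = 4.44e-09) and 1.72-fold at day 2 (1.67e-13), the opposite direction to Cdkn1a. AGHMT and GHMT cells differed by 0.08 ± 0.045 at day 7 (adjusted p = 0.177). At day 2 AGHMT cells were called lower by a narrow margin (-0.11 ± 0.043, adjusted p = 0.0394), and the call was lost without AGHMT replicate 1 (-0.08, 0.176), GHMT replicate 2 (-0.10, 0.118) or GHMT replicate 3 (-0.11, 0.0821), with the compared libraries alone (-0.10, 0.173), without a filter (-0.10, 0.307) and with DESeq2 (-0.11, 0.0585). Over time the directions parted: at day 7 Cdkn1b was 1.42, 1.61 and 1.31-fold lower than at day 2 in AGHMT, GHMT and GMT cells (adjusted p = 4.94e-10, 2.22e-12 and 1.26e-07), and 1.37-fold higher in mock cells (1.60e-09).

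Cdkn1c, the inhibitor p57, is an imprinted gene expressed from the maternal copy that restrains growth in embryonic tissues (chromosome 7, 143458339 to 143461050, minus strand). It differed most between cocktails. At day 7 the level of Cdkn1c was 181, 190.3 and 189 CPM in the AGHMT libraries, 64.3, 71.0 and 63.5 in the GHMT libraries and 2.28, 2.66 and 2.74 in the GMT libraries, against 263, 256 and 251 in the mock libraries. The 4 groups did not overlap, and GMT libraries held only 77, 93 and 102 counts. Against mock the log2 fold change was -0.46 ± 0.086 in AGHMT cells (adjusted p = 3.74e-05), -1.95 ± 0.090 in GHMT cells (5.12e-16) and -6.64 ± 0.13 in GMT cells (6.63e-24), the last a 99.8-fold lower level.

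At day 2 Cdkn1c had 592, 613 and 778 CPM in the AGHMT libraries, 162, 154 and 162 in the GHMT libraries and 6.98, 4.82 and 5.22 in the GMT libraries, against 31.0, 35.1 and 38.0 in the mock libraries. AGHMT and GHMT libraries were all above mock and GMT libraries all below. AGHMT cells were 19.0-fold and GHMT cells 4.58-fold higher than mock cells (adjusted p = 3.41e-22 and 1.16e-16), whereas GMT cells were 6.09-fold lower (2.33e-16). The highest value, 778 CPM, came from AGHMT day 2 replicate 3, the library farthest from its group. Without it the log2 fold change of AGHMT against mock at day 2 was 4.12 in place of 4.25.

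The cocktails therefore formed a ladder at both days for Cdkn1c. GHMT cells were 25.8-fold above GMT cells at day 7 and 27.9-fold at day 2 (log2 4.69 ± 0.13 and 4.80 ± 0.11, adjusted p = 7.86e-20 and 5.87e-21). AGHMT cells were 2.82-fold above GHMT cells at day 7 and 4.15-fold at day 2 (log2 1.49 ± 0.089 and 2.05 ± 0.089, adjusted p = 5.58e-13 and 8.61e-16). Without AGHMT day 2 replicate 3 the day 2 value of this last step was 1.92. From high to low the groups ran AGHMT day 2, mock day 7, AGHMT day 7, GHMT day 2, GHMT day 7, mock day 2, GMT day 2 and GMT day 7, with no overlap between neighbours. In time the cocktails and mock moved apart. AGHMT, GHMT and GMT cells had 3.54, 2.40 and 2.22-fold less Cdkn1c at day 7 than at day 2 (adjusted p = 5.96e-15, 1.41e-11 and 1.15e-06), while mock cells had 7.38-fold more (4.99e-18). Without AGHMT day 2 replicate 3 the AGHMT change between days was -1.69 on the log2 scale in place of -1.82. The day 7 effect minus the day 2 effect was -4.71 ± 0.13, -4.15 ± 0.13 and -4.04 ± 0.18 for AGHMT, GHMT and GMT against mock, so the sign of the AGHMT and GHMT effects against mock depended on the day. The AGHMT value was -4.58 without that library.

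Markers of other cell types moved beside mock Cdkn1c. Summed levels of 14 macrophage markers, none of them at 0 in any group, were 42.3 to 60.7 CPM in AGHMT, 61.2 to 64.1 in GHMT and 55.5 to 67.7 in GMT libraries at day 7, against 389.5 to 567 CPM in mock libraries. The mock libraries at day 2 summed to 55.9 to 57.2 CPM. The 12 fibroblast markers in mock cells summed to 74110 to 80270 CPM at day 7, against 45960 to 49900 CPM at day 2. The part of either list in the Cdkn1c values was not tested. Cdkn1c shares 625 exon bases with the antisense gene Gm44732, which held 0 to 2 counts per library. The strand setting of the counting is not given in the sources used here, so reads of the 2 cannot be told apart.

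**Figure D2:**
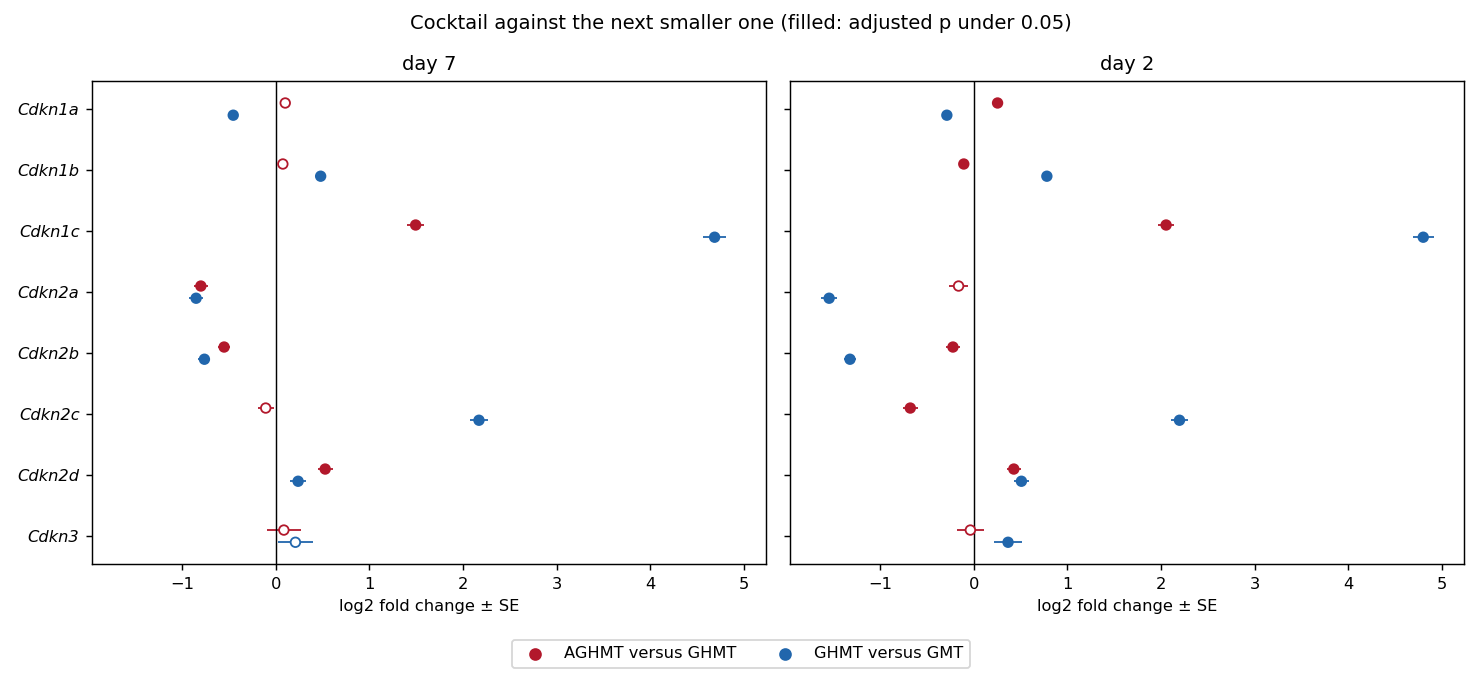
Log2 fold change with its SE for each member between a cocktail and the next smaller one, AGHMT against GHMT and GHMT against GMT, at day 7 and day 2; filled points have an adjusted p under 0.05. Cdkn1c and Cdkn2c lie far to the right for GHMT against GMT at both days, and Cdkn2a and Cdkn2b lie to the left.

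Over the whole family, the step from GMT to GHMT called 4 higher and 3 lower (18.7% and 18.8% of all genes) at day 7 and 5 higher and 3 lower (23.1% and 21.7% of all genes) at day 2. The step from GHMT to AGHMT called 2 higher and 2 lower (25.0% and 23.6% of all genes) at day 7 and 3 higher and 3 lower (25.7% and 27.0% of all genes) at day 2. At the Hand2 step 7 and 8 of the 8 members were called, shares above those backgrounds over only 8 genes. At the Akt1 step 4 and 6 of 8 were called, near the background at day 7.

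Cdkn2a (chromosome 4, 89274471 to 89294653, minus strand) encodes p16Ink4a and, in another reading frame, p19Arf, which stabilises p53. Its annotated gene has 2 transcripts, and their counts are combined here. At day 7 Cdkn2a had 29.4, 32.97 and 29.4 CPM in the AGHMT libraries, 49.2, 59.5 and 51.1 in the GHMT libraries and 103, 97.1 and 88.7 in the GMT libraries, against 88.2, 90.0 and 81.9 in the mock libraries. GMT libraries overlapped mock, whereas GHMT and AGHMT libraries lay below it and apart from each other. Against mock it was 2.83-fold lower in AGHMT and 1.63-fold lower in GHMT cells (adjusted p = 3.63e-15 and 5.48e-09). In GMT cells the log2 difference from mock was 0.15 ± 0.072 (adjusted p = 0.0671), which passed the threshold without GMT day 7 replicate 3 (0.21, adjusted p = 0.0233). At day 2 Cdkn2a had 8.72, 9.37 and 11.2 CPM in the AGHMT libraries, 10.0, 10.5 and 12.3 in the GHMT libraries and 32.3, 31.5 and 32.1 in the GMT libraries, against 34.3, 32.8 and 32.7 in the mock libraries. AGHMT and GHMT libraries overlapped each other well below GMT and mock libraries. AGHMT and GHMT cells were 3.40-fold and 3.04-fold lower than mock cells (2.52e-15 and 2.54e-14), and GMT cells differed from mock by -0.06 ± 0.078 (0.541). From high to low the groups ran GMT day 7 and mock day 7, which overlapped, then GHMT day 7 and mock day 2. Next came GMT day 2 and AGHMT day 7, which overlapped, and last GHMT day 2 and AGHMT day 2, which overlapped. Mock day 2 (32.67 to 34.28 CPM) also overlapped AGHMT day 7 (29.41 to 32.97 CPM).

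Cdkn2b, the TGF-beta-responsive inhibitor p15, lies 11645 bases from Cdkn2a (chromosome 4, 89306299 to 89311039, minus strand) and had nearly the same order of groups. The day 7 level of Cdkn2b was 37.0, 38.0 and 35.8 CPM in the AGHMT libraries, 48.9, 57.1 and 56.5 in the GHMT libraries and 93.1, 93.1 and 89.4 in the GMT libraries, against 76.1, 74.4 and 73.7 in the mock libraries. The groups did not overlap, with GMT above mock and the larger cocktails below. The log2 fold change against mock was -1.02 ± 0.066 in AGHMT cells (adjusted p = 3.95e-13), -0.46 ± 0.064 in GHMT cells (4.96e-07) and 0.30 ± 0.062 in GMT cells (1.51e-04). The day 2 level was 16.9, 18.5 and 21.9 CPM in the AGHMT libraries, 22.6, 20.8 and 23.6 in the GHMT libraries and 53.9, 57.9 and 56.1 in the GMT libraries, against 49.9, 50.9 and 50.4 in the mock libraries. The same split between the larger cocktails and the other groups was seen as for Cdkn2a. AGHMT and GHMT cells were 2.63-fold and 2.26-fold lower than mock cells (2.18e-15 and 9.47e-14). The GMT difference at day 2 (0.15 ± 0.064, 0.0427) was called narrowly: the adjusted p was 0.0933, 0.0675 or 0.0817 without mock replicate 1, 2 or 3 (0.14, 0.16 and 0.15), and 0.134 or 0.0802 without GMT replicate 2 or 3 (0.13 and 0.15). In order of level the groups ran GMT day 7, mock day 7, then GMT day 2, GHMT day 7 and mock day 2, each overlapping the next, AGHMT day 7, and last GHMT day 2 and AGHMT day 2, which overlapped.

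The Cdkn2a and Cdkn2b pair was lower in GHMT than in GMT cells. GHMT cells had 1.80-fold less Cdkn2a than GMT cells at day 7 and 2.92-fold less at day 2 (adjusted p = 6.17e-10 and 1.86e-13). They had 1.70-fold and 2.50-fold less Cdkn2b (3.05e-10 and 2.84e-14). AGHMT cells were lower still at day 7, by 1.74-fold for Cdkn2a and 1.47-fold for Cdkn2b against GHMT cells (3.95e-09 and 1.36e-07). At day 2 AGHMT and GHMT libraries overlapped for both genes. The Cdkn2a difference was -0.16 ± 0.099 (0.175), and was called without AGHMT day 2 replicate 3 (-0.28, 0.0326). The Cdkn2b difference was -0.22 ± 0.073 (0.0129), and its call was lost without AGHMT replicate 1 (-0.14, 0.122) or GHMT replicate 3 (-0.18, 0.0712) and with the compared libraries alone (-0.22, 0.118). Whether the Hand2 or Akt1 steps differ between days was not tested.

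Both genes were higher at day 7 than at day 2 in every group. Cdkn2a was 3.13, 4.87 and 3.01-fold higher at day 7 in AGHMT, GHMT and GMT cells and 2.61-fold higher in mock cells (adjusted p = 6.32e-14, 1.07e-16, 9.22e-15 and 9.38e-14). Cdkn2b was 1.93, 2.42, 1.64 and 1.48-fold higher in the same groups (2.77e-11, 8.74e-14, 9.09e-10 and 4.51e-08). Across the 8 group means of log2 CPM the 2 genes correlated with r = 0.97, a description over 8 groups in which both genes are read from the same libraries. The neighbour Mtap, 93389 bases from Cdkn2a on its other side and encoding an enzyme of methionine salvage, differed from mock at day 7 by -0.22 in AGHMT, -0.04 in GHMT and 0.09 in GMT cells on the log2 scale (adjusted p = 1.42e-04, 0.428 and 0.0947). At day 2 it was -0.97, -0.92 and -0.45 (8.01e-16, 3.61e-15 and 3.26e-09).

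The promoter windows of this locus are shown because its genes moved together. The window of the upstream start of Cdkn2a held the E2F letters TTTCCCGC at position -99, one of the sites TTTGGCGC, TTTCGCGC and TTTCCCGC searched on both strands and found in 1.84% of windows. The window of the downstream start held none of the motifs searched. The Cdkn2b window held the CHR letters TTTGAA on its minus strand (printed TTCAAA) at position -161, a match found in 17.9% of windows. Windows are from RefSeq on GRCm38.p6, written 5′ to 3′ along the gene, minus strand, chr4:89294570-89294869, chr4:89282143-89282442 and chr4:89310983-89311282, with matches in capitals.
Cdkn2a upstream start: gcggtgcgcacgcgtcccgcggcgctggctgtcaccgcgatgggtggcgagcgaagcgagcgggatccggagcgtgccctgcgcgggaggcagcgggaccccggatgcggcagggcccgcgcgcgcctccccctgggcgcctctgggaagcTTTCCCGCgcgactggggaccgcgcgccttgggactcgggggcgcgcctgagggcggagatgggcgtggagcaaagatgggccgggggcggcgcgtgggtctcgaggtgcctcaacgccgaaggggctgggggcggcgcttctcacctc
Cdkn2a downstream start: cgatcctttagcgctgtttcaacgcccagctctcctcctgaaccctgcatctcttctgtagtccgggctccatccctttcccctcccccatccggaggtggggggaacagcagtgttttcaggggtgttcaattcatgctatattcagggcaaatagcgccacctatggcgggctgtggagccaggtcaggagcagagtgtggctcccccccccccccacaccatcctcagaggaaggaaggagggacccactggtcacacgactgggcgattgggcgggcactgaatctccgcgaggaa
Cdkn2b: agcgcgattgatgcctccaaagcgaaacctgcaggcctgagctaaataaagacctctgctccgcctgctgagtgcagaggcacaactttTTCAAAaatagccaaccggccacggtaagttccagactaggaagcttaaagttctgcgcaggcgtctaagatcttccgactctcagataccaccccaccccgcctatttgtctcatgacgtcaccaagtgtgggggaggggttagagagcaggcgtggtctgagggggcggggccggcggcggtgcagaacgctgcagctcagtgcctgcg

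Cdkn2c, the inhibitor p18 (chromosome 4, 109660876 to 109667189, minus strand), moved the other way from Cdkn2a and Cdkn2b at the Hand2 step. At day 7 Cdkn2c had 24.1, 25.9 and 24.8 CPM in the AGHMT libraries, 26.5, 28.5 and 25.4 in the GHMT libraries and 5.25, 5.83 and 6.74 in the GMT libraries, against 24.3, 20.1 and 22.6 in the mock libraries. GMT libraries were far below all others, and AGHMT libraries overlapped mock. GMT cells were 3.75-fold lower than mock cells (adjusted p = 6.05e-15). GHMT cells were 1.201-fold higher (log2 0.26 ± 0.085, 0.00733), a call lost without mock day 7 replicate 2 (0.19, 0.0621). The AGHMT difference was 0.16 ± 0.086 (0.0973), and was called without mock day 7 replicate 1 (0.21, 0.0457). At day 2 Cdkn2c had 33.7, 32.5 and 41.5 CPM in the AGHMT libraries, 56.4, 58.3 and 57.9 in the GHMT libraries and 13.7, 12.46 and 11.4 in the GMT libraries, against 13.1, 13.54 and 13.1 in the mock libraries. GHMT libraries were highest, AGHMT libraries next, and GMT overlapped mock. AGHMT and GHMT cells were 2.71-fold and 4.33-fold higher than mock cells (1.28e-13 and 5.10e-17), and the GMT difference was -0.08 ± 0.094 (0.460). GHMT cells were 4.50-fold above GMT cells at day 7 and 4.58-fold at day 2 (2.04e-15 and 1.09e-16). AGHMT cells were 1.602-fold below GHMT cells at day 2 (8.56e-08), and at day 7 they overlapped (-0.11 ± 0.084, 0.312). From high to low the groups ran GHMT day 2, AGHMT day 2, then GHMT day 7, AGHMT day 7 and mock day 7, each overlapping the next, then mock day 2 and GMT day 2, which overlapped, and GMT day 7.

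Cdkn2d, the inhibitor p19Ink4d (chromosome 9, 21288410 to 21291407, minus strand), had the smallest ratio of highest to lowest group. Its level at day 7 was 16.9, 15.96 and 16.8 CPM in the AGHMT libraries, 11.8, 11.9 and 10.6 in the GHMT libraries and 9.46, 9.51 and 10.2 in the GMT libraries, against 15.8, 14.9 and 14.2 in the mock libraries. AGHMT libraries lay above mock and the other cocktails below. GMT and GHMT cells were 1.54-fold and 1.30-fold lower than mock cells (adjusted p = 1.97e-07 and 1.41e-04), and AGHMT cells differed by 0.15 ± 0.077 (0.0890). Its level at day 2 was 20.9, 22.5 and 26.4 CPM in the AGHMT libraries, 17.4, 15.7 and 18.9 in the GHMT libraries and 12.8, 12.01 and 11.8 in the GMT libraries, against 13.497, 14.0 and 13.3 in the mock libraries. AGHMT and GHMT libraries lay above mock, and GMT libraries below it. AGHMT and GHMT cells were 1.71-fold and 1.27-fold higher than mock cells (1.02e-09 and 2.99e-04), and GMT cells differed by -0.16 ± 0.079 (0.0828). AGHMT cells were 1.44-fold above GHMT cells at day 7 and 1.34-fold at day 2 (4.20e-06 and 2.99e-05). GHMT cells were 1.42-fold above GMT cells at day 2 (6.78e-06). The same step at day 7 (0.24 ± 0.083, 0.0246) was lost without GHMT replicate 1 or 2 (0.22 and 0.21; 0.0830 and 0.0923) or GMT replicate 1 or 2 (0.22 and 0.22; 0.0798 and 0.0771). From high to low the groups ran AGHMT day 2, then GHMT day 2 and AGHMT day 7, which overlapped. Next came mock day 7 and mock day 2, then GMT day 2 and GHMT day 7, which overlapped, and GMT day 7. GHMT day 2 (15.70 to 18.89 CPM) also overlapped mock day 7 (14.20 to 15.78 CPM).

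Cdkn3, the CDK2 phosphatase KAP (chromosome 14, 46760541 to 46771669, plus strand), fell in every cocktail at both days. At day 7 the Cdkn3 level was 1.13, 1.11 and 1.398 CPM in the AGHMT libraries, 1.06, 1.196 and 1.18 in the GHMT libraries and 0.979, 0.857 and 1.13 in the GMT libraries, against 4.61, 4.40 and 5.01 in the mock libraries. No cocktail library reached mock, and the 3 cocktails overlapped each other. It was 3.83, 4.07 and 4.70-fold lower in AGHMT, GHMT and GMT cells (adjusted p = 6.16e-12, 2.87e-12 and 5.80e-13). At day 2 the Cdkn3 level was 1.97, 2.43 and 2.58 CPM in the AGHMT libraries, 2.25, 2.25 and 2.67 in the GHMT libraries and 2.07, 1.49 and 1.99 in the GMT libraries, against 7.38, 5.98 and 6.43 in the mock libraries. Again no cocktail library reached mock. Cdkn3 was 2.83, 2.76 and 3.55-fold lower in the same order (2.77e-11, 8.18e-11 and 1.36e-12). It was the member with the fewest reads, 30 to 253 counts per library, and its differences between cocktails were small beside their errors. AGHMT minus GHMT was 0.09 ± 0.18 at day 7 and -0.04 ± 0.14 at day 2 (adjusted p = 0.731 and 0.847). These were so near 0 that leaving out AGHMT day 7 replicate 3 turned the first to -0.03 (0.924), and leaving out AGHMT replicate 1 or GHMT replicate 3 turned the second to 0.07 or 0.05 (0.722 and 0.828). GHMT minus GMT was 0.21 ± 0.19 at day 7 (0.423) and 0.37 ± 0.15 at day 2 (0.0449). The day 2 call was lost without GHMT replicate 1, 2 or 3 (0.41, 0.41 and 0.28; 0.0523, 0.0546 and 0.192) or GMT replicate 2 (0.23; 0.239), with the compared libraries alone (0.36; 0.0559), without a filter (0.35; 0.118) and with DESeq2 (0.36; 0.10). In order of level the groups ran mock day 2, mock day 7, then GHMT day 2, AGHMT day 2 and GMT day 2, each overlapping the next, and last AGHMT day 7, GHMT day 7 and GMT day 7, again overlapping.

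The Cdkn3 window is shown because genes of the G2 and M phases, many of which are known to carry a CHR element (TTTGAA), fell together with it. It held this element on the minus strand (printed TTCAAA, in capitals) at position -111, as did 17.9% of all windows. The window is from RefSeq on GRCm38.p6, chr14:46760291-46760590, plus strand.
Cdkn3: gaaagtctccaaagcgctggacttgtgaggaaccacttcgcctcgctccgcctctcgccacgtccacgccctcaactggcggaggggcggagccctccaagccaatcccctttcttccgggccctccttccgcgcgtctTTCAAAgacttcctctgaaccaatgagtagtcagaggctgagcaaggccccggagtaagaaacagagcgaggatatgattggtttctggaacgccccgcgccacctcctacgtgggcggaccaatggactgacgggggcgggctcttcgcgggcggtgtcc

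In all, 7 of the 8 members had an entry among the RefSeq promoter windows, with 10 windows between them. None of the 10 held the GATA letters AGATAA or TGATAA (18.6% of windows did), the E-box CATCTG (17.2%) or a MEF2 site, searched by its usual palindrome (3.69%). The T-box letters AGGTGT (13.7%) were in the Cdkn1b window and in the downstream Cdkn1a window. All were searched on both strands, and no matches in a member's window overlapped. A match or its absence in 300 bases is a description of these letters.

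**Figure D3:**
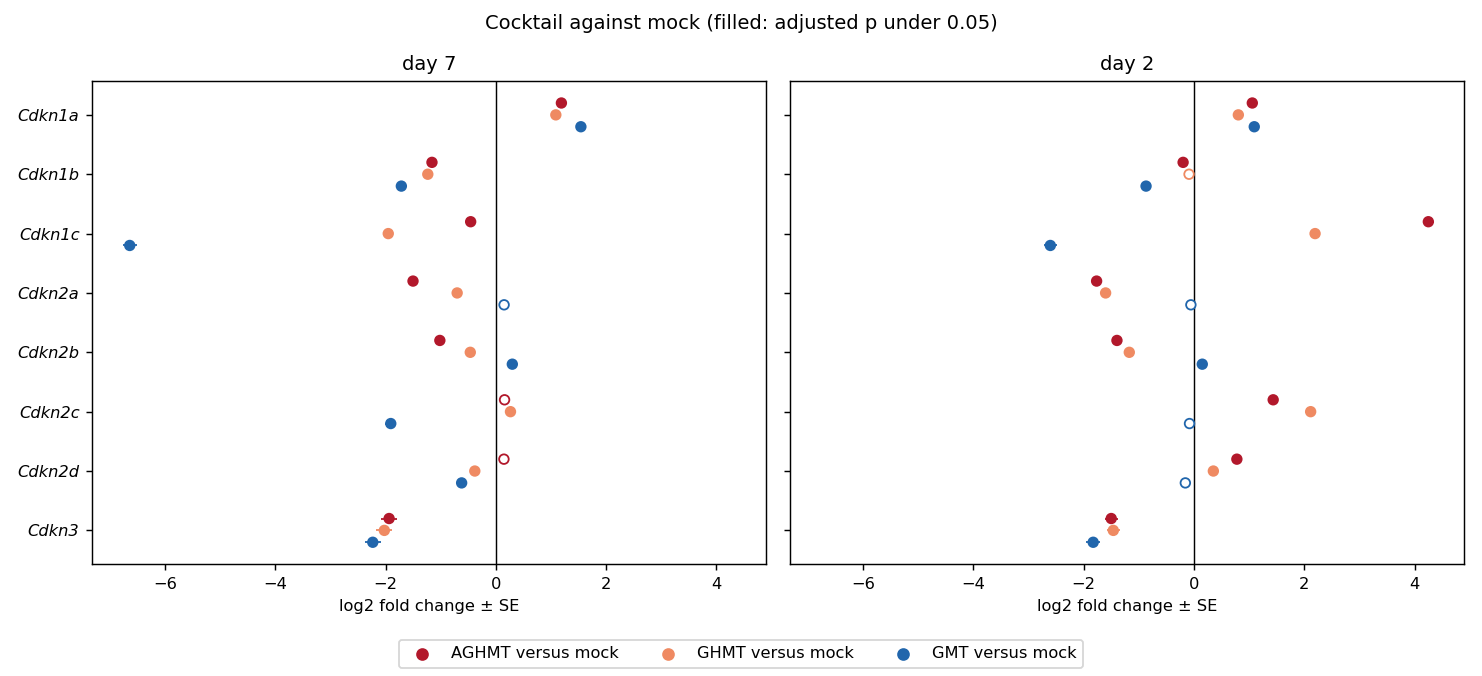
Log2 fold change with its SE for each member in AGHMT, GHMT and GMT cells against mock cells of the same day; filled points have an adjusted p under 0.05. Cdkn1a lies right of 0 and Cdkn3 left of 0 in all 6 comparisons, and Cdkn1c lies at -6.64 in GMT cells at day 7 and at 4.25 in AGHMT cells at day 2.

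Between the 2 days the members called at day 7 against day 2 were 3 higher and 5 lower (29.5% and 24.9% of all genes) in AGHMT cells, 3 higher and 5 lower (25.6% and 24.6% of all genes) in GHMT cells and 3 higher and 5 lower (27.5% and 24.4% of all genes) in GMT cells. In every cocktail Cdkn1a, Cdkn2a and Cdkn2b were the higher ones and Cdkn1b, Cdkn1c, Cdkn2c, Cdkn2d and Cdkn3 the lower ones. The smallest of these changes was Cdkn1a in AGHMT cells (0.19 ± 0.045, adjusted p = 7.68e-04), a call lost when only the compared libraries were fitted (0.16, adjusted p = 0.0549). In mock cells the counts were 5 higher and 1 lower (29.7% and 25.8% of all genes). Cdkn1b, Cdkn1c, Cdkn2a, Cdkn2b and Cdkn2c were higher, and Cdkn3 was lower. Cdkn2c was 1.44, 2.14 and 2.11-fold lower at day 7 in AGHMT, GHMT and GMT cells (adjusted p = 7.12e-06, 2.93e-11 and 4.45e-09) and 1.68-fold higher in mock cells (1.20e-07). Cdkn1a and Cdkn2d were not called in mock cells (0.06 ± 0.045 and 0.14 ± 0.078, 0.250 and 0.140). The day 7 effect against mock minus the day 2 effect was called for 1 higher and 4 lower (24.8% and 26.1% of all genes) in AGHMT cells, 3 higher and 5 lower (23.3% and 26.0% of all genes) in GHMT cells and 1 higher and 4 lower (24.3% and 25.3% of all genes) in GMT cells. Cdkn1b, Cdkn1c, Cdkn2c and Cdkn2d were called in all 3 of these tests, each with a lower effect at day 7.

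**Figure D4:**
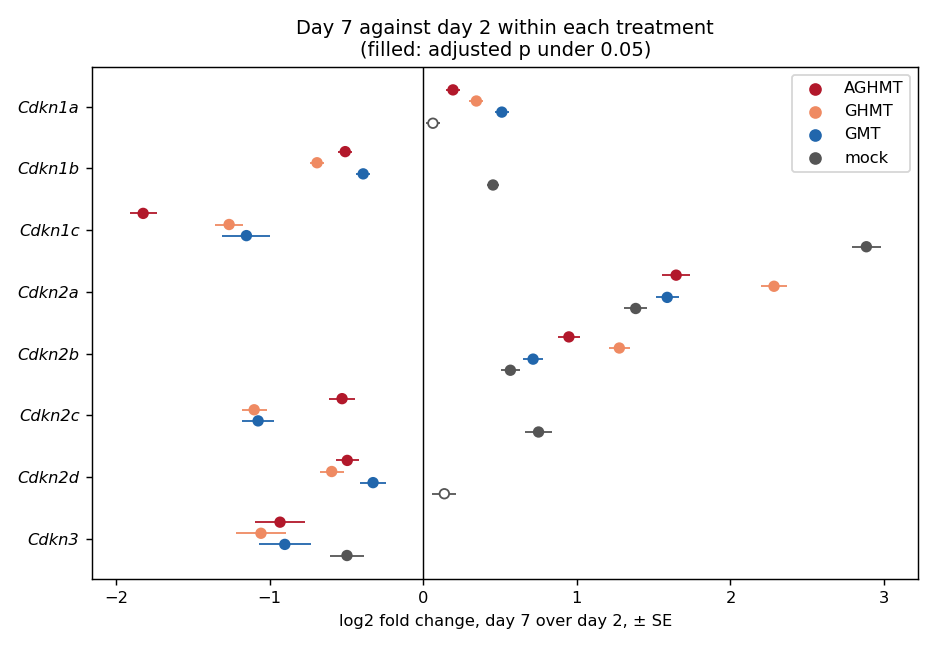
Log2 fold change of day 7 over day 2 with its SE for each member in AGHMT, GHMT, GMT and mock cells; filled points have an adjusted p under 0.05. Cdkn2a and Cdkn2b lie right of 0 in all 4 groups, while Cdkn1b, Cdkn1c and Cdkn2c lie right of 0 in mock cells and left of 0 in the cocktails.

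The kinases, cyclins and downstream genes of the pathway moved as follows in AGHMT, GHMT and GMT cells against mock cells at day 7. List counts here and below are to be read beside the shares of all genes called. At day 7 these were 38.6%, 36.3% and 37.1% higher and 38.1%, 35.6% and 36.0% lower. At day 2 they were 38.0%, 34.9% and 33.9% higher and 37.4%, 33.3% and 33.1% lower. Of 18 CDKs, cyclins and their activating or inhibiting partners, 16, 13 and 13 fell and 2, 3 and 3 rose, with median log2 fold changes of -0.83, -0.81 and -0.88, where the medians over all genes were within 0.0118 of 0. Ccna2, the S phase cyclin, had 12.04 ± 0.79, 12.3 ± 1.36 and 10.8 ± 1.18 CPM in AGHMT, GHMT and GMT cells, against 46.0 ± 1.3 CPM in mock cells (log2 -1.93, -1.90 and -2.08). Cdk4, the target of the INK4 proteins, fell as well (log2 -1.26, -0.76 and -0.61). At day 2, 14, 14 and 13 of the 18 fell. Ccnd1, the D-type cyclin that activates CDK4, fell in all 3 cocktails at day 2, with 53.8 ± 6.1 CPM in AGHMT, 135 ± 3.1 in GHMT and 221 ± 6.9 in GMT cells, against 288 ± 14.6 in mock cells (log2 -2.42, -1.10 and -0.38). It was lower in AGHMT than in GHMT cells and in GHMT than in GMT cells at day 2 (log2 -1.33 and -0.71, adjusted p = 7.72e-16 and 5.09e-11). At day 7 the difference between GHMT and GMT cells went the other way. Ccnd1 then had 397 ± 9.8 CPM in GHMT and 354 ± 4.1 in GMT cells (log2 0.16, adjusted p = 0.0178).

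All 27 genes of the G2 and M phases fell in each of the 3 cocktails at both days, with median log2 fold changes of -1.74, -1.72 and -1.87 at day 7 and -1.48, -1.402 and -1.42 at day 2. Beside them Cdkn3 changed by -1.94, -2.02 and -2.23 at day 7. Bub1b, a spindle checkpoint kinase, changed by -1.99, -1.92 and -2.09, and Ndc80, a kinetochore protein, by -1.79, -1.70 and -2.00. Of 28 S phase genes, 26, 27 and 26 fell at day 7 and none rose. At day 2, 28, 28 and 26 fell and 0, 0 and 1 rose. Mcm6, a subunit of the replicative helicase, changed at day 7 by -1.53, -0.99 and -1.36, and Rrm1, which makes deoxynucleotides, by -1.30, -1.32 and -1.42. Of 19 genes of the Rb and E2F group, 10, 11 and 10 fell and 6, 7 and 6 rose, the last near the 38.6%, 36.3% and 37.1% of all genes called higher. Foxm1, an activator of mitotic genes, changed by -1.76, -1.61 and -1.65, while the repressor E2f6 changed by 0.85, 1.17 and 1.45.

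Of 24 p53 targets other than Cdkn1a, 14 rose in each cocktail at day 7 and 7, 7 and 8 fell, with medians of 0.46, 0.43 and 0.24. Perp, which acts in apoptosis and cell adhesion, changed by 3.47, 3.04 and 3.28, Btg2, an antiproliferative gene, by 0.86, 1.08 and 1.33, and Ccng1, which acts in p53 feedback, by 1.67, 1.22 and 1.07. At day 2, 13, 15 and 15 rose and 5, 5 and 4 fell, where 38.0%, 34.9% and 33.9% of all genes were called higher and 37.4%, 33.3% and 33.1% lower. Plk2, a kinase of the centriole cycle, was among those that fell at day 2 (log2 -1.80, -2.11 and -1.85). Of 30 upstream regulators of the inhibitors, 4, 6 and 7 rose and 26, 20 and 20 fell at day 7. Tgfb2, a ligand of the TGF-beta pathway that can induce Cdkn2b, rose by 2.04, 2.17 and 2.30, and Twist1, known to repress Cdkn2a in other cells, fell to 17.3 ± 0.42, 19.4 ± 1.3 and 18.5 ± 1.1 CPM, against 101 ± 4.0 CPM in mock cells. Cdkn2a and Cdkn2b were both called lower than mock in AGHMT and GHMT cells at day 7. In GMT cells Cdkn2b was called higher and Cdkn2a was not called. Whether Tgfb2 or Twist1 acted on these genes here was not tested. A list of 13 genes held ubiquitin ligases that act on the inhibitors and genes that work with them, such as Cks1b and Pcna. Of these, 5 rose and 6 fell in each cocktail, near the shares of all genes (36.3% to 38.6% higher and 35.6% to 38.1% lower at day 7). Skp2, the receptor that marks p27 for degradation, changed by -1.26, -1.12 and -1.34, and so fell in the same groups as Cdkn1b mRNA. At the step from GMT to GHMT at day 7, 18.7% of all genes were called higher and 18.8% lower. The calls there were 8 higher and 1 lower of the 27 G2 and M phase genes and 5 and 1 of the 28 S phase genes. They were 5 and 3 of the 18 CDK and cyclin genes and 7 and 4 of the 19 Rb and E2F genes. For the 24 p53 targets they were 7 and 5, for the 30 upstream regulators 4 and 10, and for the 13 genes of the ligase list 3 and 1. The lists share genes, such as Pcna, Cdk1, Cdc20 and Mdm2. They also hold several genes whose levels differ with cell type, and the summed markers given above moved with them. Their part was not tested.

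**Figure D5:**
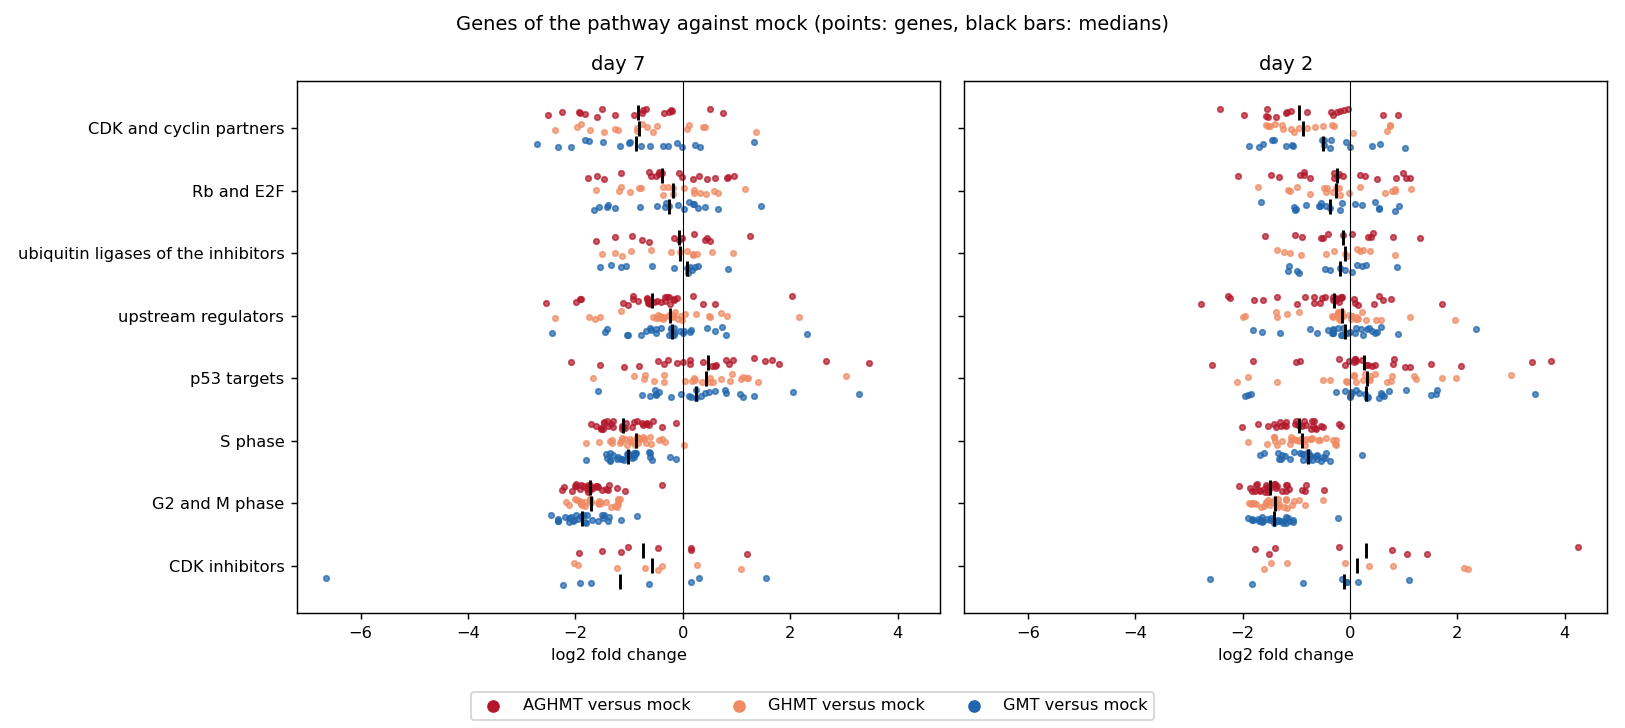
Log2 fold change of each gene (points) of 7 pathway lists and of the 8 CDK inhibitors in AGHMT, GHMT and GMT cells against mock cells of the same day, with medians as black bars. All G2 and M phase genes lie left of 0 at both days, whereas the CDK inhibitors and p53 targets lie on both sides.

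The genes whose pattern over the 8 group means was most like that of a member were taken from 11575 tested genes outside the family, of at least 5 CPM in some group, by Pearson's r of log2 CPM, up to 3 for each member. For Cdkn3 these were Gk5, Cdc25c and Ndc80 (r = 0.997, 0.996 and 0.996), and for Cdkn1a they were Atp6v1f, Atp6v0a1 and Csrp3 (0.993, 0.992 and 0.989). For Cdkn1b they were Mfap4, Kdelr1 and Cdon (0.992, 0.989 and 0.986), and for Cdkn1c they were Frem1, Dcaf5 and Smoc2 (0.972, 0.972 and 0.971). Cdkn2a was most like Rpl39l and Ptges (0.985 and 0.958), and Cdkn2b was most like Slc39a11, Angptl4 and Abcc3 (0.976, 0.968 and 0.964). Cdkn2c was most like Lrch2, Slit3 and Smg6 (0.967, 0.958 and 0.954), and Cdkn2d was most like Taf7, Stt3b and Gtpbp1 (0.985, 0.978 and 0.977). With 8 points and so many candidates, such values are a description and carry no test.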

How the data were processed

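Total RNA was extracted with TRIzol, per the labels' protocols. Tools listed in the submitters' processing notes are featureCounts 1.4.6, HISAT2 2.0.1, Trim Galore 0.4.1 and DESeq2 1.6.3, with the build GRCm38 (mm10). The authors deposited raw read counts for 47967 genes in 24 libraries. How strand was set and which annotation was counted is not given in the sources used here. A second deposited table holds log2 values that differed by at most 0.00603 from log2 CPM computed here (values under 1 CPM set to 0), and served only for that check.

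The counts were fitted with edgeR 4.0.16 (R 4.3.3, limma 3.58.1): TMM factors, filterByExpr by group (17576 genes left), 1 mean per group over all 24 libraries with 16 residual degrees of freedom, quasi-likelihood F tests, 2-sided, with Benjamini-Hochberg adjustment over the 17576 genes in each of 17 comparisons. Adjusted p-values given in the text without a tool's name are from this fit. Library totals of 29345957 to 37495178 counts leave 30 or more counts for every member in every library, and the common biological coefficient of variation was 5.55%. No replicate pair agreed within sampling noise (lowest chi-square per degree of freedom 1.49). The fitting code was tested on simulated data with known changes. Levels per kilobase use exon lengths from GENCODE M21, which held 99.7% of the tested genes, and promoter windows of 250 bases before to 50 after a start come from RefSeq on GRCm38.p6.

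The members and lists were chosen with earlier results of these data known. All members are named; from each pathway list genes among the 4 with the smallest adjusted p in a comparison are named; and for each member the 3 genes of most similar pattern, 1 of which is not reported here. Alternatives were DESeq2 1.42.0, its size factors within edgeR, no filter, fits of the compared libraries alone, a replicate block, and leaving out each library in turn. ChIP-seq and embryonic heart samples of the study were not analysed here.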

Additional observations from a re-analysis of the deposited data

Results flagged for a closer look

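The effect of a cocktail against mock differed between the days, by the test of the difference itself, for 18 of 24 combinations of member and cocktail. Members called were 1 higher and 4 lower in AGHMT and in GMT cells, and 3 higher and 5 lower in GHMT cells. Of all genes tested, 24.8% were called higher and 26.1% lower in AGHMT cells by this test. These shares were 23.3% and 26.0% in GHMT cells and 24.3% and 25.3% in GMT cells. All values are the day 7 log2 fold change against mock minus the day 2 one, with the edgeR adjusted p in brackets. For Cdkn1c the difference was -4.71 (2.79e-19) in AGHMT, -4.15 (2.66e-18) in GHMT and -4.04 (2.73e-15) in GMT cells, the first being -4.58 without AGHMT day 2 replicate 3. Mock Cdkn1c was 7.38-fold higher at day 7 than at day 2, which enters all 3 values. For Cdkn2c it was -1.28 (2.95e-09), -1.85 (3.35e-12) and -1.83 (4.97e-11). For Cdkn1b it was -0.96 (1.68e-12), -1.15 (7.27e-14) and -0.84 (3.56e-11), and for Cdkn2d -0.63 (2.36e-05), -0.73 (5.25e-06) and -0.46 (0.00133). Cdkn2b differed in AGHMT cells by 0.38 (0.00162) and in GHMT cells by 0.71 (7.35e-07). Cdkn1a differed in GHMT cells by 0.28 (6.58e-04) and in GMT cells by 0.45 (2.17e-06). Cdkn2a differed in GHMT cells by 0.90 (4.46e-07). Cdkn3 differed in GHMT cells by -0.56 (0.0200), a call lost with DESeq2 (-0.56, 0.0534) and without GHMT day 2 replicate 3 (-0.48, 0.0663) or GHMT day 7 replicate 1 (-0.51, 0.0585). The 3 cocktails share the mock libraries of each day, so their values are not independent.

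The other 6 combinations were not called. In AGHMT cells the difference was 0.13 (0.0925) for Cdkn1a and 0.26 (0.0650) for Cdkn2a. Both were called without AGHMT day 2 replicate 3, at 0.18 (0.00795) and 0.37 (0.00770). Cdkn3 in AGHMT cells, at -0.44 (0.0648), was called without AGHMT day 2 replicate 1 (-0.55, 0.0247), AGHMT day 7 replicate 3 (-0.56, 0.0376) or mock day 2 replicate 1 (-0.53, 0.0289). Cdkn3 in GMT cells, at -0.40 (0.0993), was called without mock day 2 replicate 1 (-0.49, 0.0474) or GMT day 2 replicate 2 (-0.54, 0.0303). In GMT cells Cdkn2a differed by 0.21 (0.115) and Cdkn2b by 0.15 (0.181), and both were called with the compared libraries alone, at 0.23 (0.00762) and 0.17 (0.00481).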

How the results depend on the processing

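The number of genes called stayed within 1.5 times the value given in all 17 comparisons under each alternative: 0.994 to 1.007 times with the other size factors, 0.969 to 1.057 without a filter, 0.934 to 1.010 with DESeq2, 0.750 to 1.159 with the compared libraries alone and 0.878 to 1.076 when 1 library was left out. Of the 136 member results, 135 kept their direction and side of the threshold with the other size factors, 134 without a filter, 133 with DESeq2 and 126 with the compared libraries alone. Of 960 results with 1 library left out, 924 did, 21 lost a call, 12 gained one and 3 changed sign. The sign changes concern Cdkn3 in AGHMT against GHMT cells, never called: its log2 difference ran from -0.032 to 0.145 at day 7 and from -0.12 to 0.073 at day 2, and was 0.05 without GHMT day 2 replicate 3. With the compared libraries alone the calls of Cdkn1a in AGHMT cells at day 7 against day 2 (adjusted p = 0.0549), and at day 2 of Cdkn3 in GHMT against GMT cells (0.0559) and of Cdkn1b and Cdkn2b in AGHMT against GHMT cells (0.173 and 0.118) were lost. Calls were gained there for Cdkn2c and Cdkn2d in AGHMT (0.0235 and 0.0272) and Cdkn2a in GMT cells (0.0120; 0.0468 with the other size factors) against mock at day 7, for Cdkn2d in GMT cells at day 2 (0.0264), and for Cdkn2a and Cdkn2b in the GMT difference between days (0.00762 and 0.00481). DESeq2 lost the calls of Cdkn3 in GHMT against GMT cells at day 2 (0.10), of Cdkn1b in AGHMT against GHMT cells at day 2 (0.0585) and of Cdkn3 in the GHMT difference between days (0.0534). Without a filter the first 2 of these were lost (0.118 and 0.307). The cause was not tested.

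In the labels, same-numbered libraries share only a number. Of 84 same-number pairs, 1 had a correlation of deviations over 0.1, and 10 of 24 libraries correlated best with their own number. That pair was replicate 3 of AGHMT and GHMT at day 2 (0.27). The pairs of AGHMT with GHMT at day 2 ran from 0.072 to 0.27, so those libraries may not be independent. With the replicate block the count of genes called was 0.994 to 1.000 times that without it, and 1 of 136 member results changed side, Cdkn3 in the AGHMT difference between days (-0.43, adjusted p = 0.0459). Depth limits Cdkn3 most, with 30 to 253 counts per library.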

Other observations

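Phlda2, an imprinted growth regulator 40494 bases from Cdkn1c in the same imprinted domain, had another order of groups than Cdkn1c. At day 7 it had 4.44 ± 0.51 CPM in AGHMT, 4.64 ± 0.43 in GHMT and 8.49 ± 0.69 in GMT cells (SD, n = 3 each), against 0.0506 ± 0.035 CPM, or 1 to 3 counts per library, in mock cells. It was called higher than mock in all 3 cocktails at day 7 (edgeR adjusted p = 3.73e-15, 2.78e-15 and 1.60e-17), where Cdkn1c was called lower in all 3. At day 2 it had 2.45 ± 0.66 CPM in AGHMT, 0.475 ± 0.14 in GHMT and 1.201 ± 0.22 in GMT cells, against 0.0581 ± 0.030 CPM in mock cells, again called higher in all 3 (adjusted p = 7.41e-13, 2.51e-05 and 1.45e-09). The direction at day 2 was that of Cdkn1c in AGHMT and GHMT cells and the opposite in GMT cells. GHMT cells had less Phlda2 than GMT cells at both days (log2 difference -0.87 at day 7 and -1.33 at day 2, adjusted p = 3.57e-06 and 2.55e-04), where Cdkn1c was higher. AGHMT cells had more than GHMT cells at day 2 (2.37, adjusted p = 6.97e-09), as for Cdkn1c, and differed by -0.06 at day 7 (0.762). Slc22a18, a transporter gene between them at 12685 bases from Cdkn1c, differed from mock by -0.08, -0.48 and -1.02 in AGHMT, GHMT and GMT cells at day 7 (adjusted p = 0.580, 0.00162 and 2.21e-07) and by -0.48, -1.29 and -0.21 at day 2 (0.00683, 4.55e-07 and 0.212). Kcnq1, a potassium channel gene 31296 bases away on the other side, had 0 to 22 counts per library. At day 7 it had 0.469 ± 0.084 CPM in AGHMT, 0.320 ± 0.065 in GHMT and 0.0961 ± 0.061 in GMT cells, against 0.0300 ± 0.030 CPM in mock cells. GHMT cells were above GMT cells for Kcnq1 at day 7 (1.72, adjusted p = 0.00567), as for Cdkn1c, while AGHMT and GHMT cells were above mock cells (2.18e-06 and 5.73e-05), where Cdkn1c was below. These neighbours were looked at with the Cdkn1c values known.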
